A study of Rattus norvegicus with 11 samples.

Results

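Ion channels and neurotransmitter receptors were examined in the corpora quadrigemina (inferior and superior colliculi, the midbrain roof) of rats that differ in audiogenic epilepsy (AE), a convulsive response to loud sound. The members were genes of the supplementary gene list of the study whose symbols begin with the letters of the main channel and receptor families, among them Kcn, Scn, Cacn, Trpv, Htr, Chrn, Chrm, Gabr, Gabbr and Grik, leaving out Kcne2, Kcne5 and Cacng4. This gave 27 of the 32883 genes counted. Of these, 22 encode channels, receptors or their auxiliary subunits, and 5 share only the first letters (Htra1, Htra3, Htra4, Itprid2 and Scnm1). The list names mostly genes that were listed as differing between KM rats and W rats or between KM rats and “0” rats, and it pairs 1763 identifiers with a symbol. The 22 genes are therefore a selection for difference and not a sample of the channels these cells express. Of the 22, 14 were listed for KM vs W only, 6 for KM vs “0” only, and Htr3a and Gabbr1 for both.

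Poly(A) RNA of 11 male rats, each 4 months old, was sequenced as 1 library per animal. The groups were 3 KM rats (Krushinsky-Molodkina, an inbred strain bred from Wistar stock for AE and prone to it), 4 W rats (outbred Wistar, wild type) and 4 “0” rats (bred from KM and Wistar hybrids for the absence of AE, labelled as less prone to it). The labels give wistar as the strain of all 3 groups. Tissue was taken 4 days after exposure to the bell used to test for seizures. The KM rats had convulsed in that test, the W and “0” rats had been kept for the absence of seizures, and the “0” rats had been exposed more often than the others, so strain and seizure history cannot be told apart.

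Voltage-gated calcium and potassium channels set how a neuron fires and how much transmitter it releases, and their auxiliary subunits set how many channels reach the membrane and how they open. Ionotropic receptors for serotonin, acetylcholine, GABA and glutamate are themselves ion channels, while muscarinic and GABA-B receptors act through G proteins. In the inferior colliculus the balance of GABA inhibition and glutamate excitation is known to shape responses to sound and the onset of audiogenic seizures.

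Of the 22 genes, 4 passed an unadjusted p under 0.05 in 2 of the 3 comparisons, which share rats. The rule used 2 of these comparisons and the share over all genes was not computed, so the count serves only to pick examples. These 4 genes were Kcnj8, Scn4a, Chrm1 and Htr3a. The sequences around the starts of those with an entry in RefSeq's promoter table (build GRCr8, from 250 bases before the start to 50 after it) are shown here so that a reader can see how unlike they are. Entries were found for 19 of the 22 genes, and for Kcnj8, Scn4a and Chrm1 of these 4. Capitals mark any GC box (GGGCGG), cyclic AMP response element (TGACGTCA), TATA motif (TATAAA) or E-box (CAGCTG), searched on both strands. These motifs occur in 34.9%, 1.91%, 14.3% and 15.1% of the 27457 promoters of the table, and in 9, 0, 1 and 4 of the 19 promoters of the channel and receptor genes. The Kcnj8 promoter (chr4:177246499-177246798, minus strand) holds 23 CpG dinucleotides, the Scn4a promoter (chr10:91796275-91796574, minus strand) holds 9, and the Chrm1 promoter (chr1:214996109-214996408, plus strand) holds 7, against a median of 7 over the whole table. Kcnj8 has a GC box on the opposite strand, Scn4a has an E-box, and none of the 4 motifs was found in the window of Chrm1. A match is a description of letters and not a bound site.
Kcnj8: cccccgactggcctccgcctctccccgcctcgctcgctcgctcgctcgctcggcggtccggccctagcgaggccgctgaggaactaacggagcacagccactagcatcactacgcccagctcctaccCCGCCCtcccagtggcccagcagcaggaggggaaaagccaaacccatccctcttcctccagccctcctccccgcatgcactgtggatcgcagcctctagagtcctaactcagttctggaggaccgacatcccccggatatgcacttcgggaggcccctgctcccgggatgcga
Scn4a: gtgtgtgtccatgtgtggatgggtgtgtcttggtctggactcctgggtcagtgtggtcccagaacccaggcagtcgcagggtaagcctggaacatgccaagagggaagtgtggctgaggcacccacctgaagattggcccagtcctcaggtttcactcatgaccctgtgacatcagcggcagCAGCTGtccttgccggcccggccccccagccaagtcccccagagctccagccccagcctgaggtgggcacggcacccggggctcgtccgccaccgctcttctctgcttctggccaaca
Chrm1: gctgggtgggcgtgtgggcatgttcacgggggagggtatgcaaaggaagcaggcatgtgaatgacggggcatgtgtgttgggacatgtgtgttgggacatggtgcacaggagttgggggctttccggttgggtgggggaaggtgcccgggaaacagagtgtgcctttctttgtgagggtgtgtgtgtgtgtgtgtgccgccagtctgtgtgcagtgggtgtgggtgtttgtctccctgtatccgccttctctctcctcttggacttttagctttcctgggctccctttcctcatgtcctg

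Between 10545964 and 15140180 reads per rat were assigned to genes, and 3 counts, taken as the detection floor, stood for 0.178 to 0.331 CPM (counts scaled to library size), a floor that covers counting error only. Every channel and receptor gene had a mean of at least 1 CPM in the rats of each comparison, so all 22 were tested in all 3. Genes with an unadjusted p under 0.05 in the quasi-likelihood F-test (QLF test) of edgeR were counted as DEGs. CPM are not divided by gene length, so levels were compared between rats and not between genes. Libraries differed in make-up. The choroid plexus markers Ttr, Kl, Folr1 and Clic6 summed to 6896 CPM in KM 3 against at most 63.5 CPM in any other rat. The 10 genes with most counts held 29.2% of the reads of “0” 3 (TMM factor 0.814) and 7.94% to 19.0% of those of the others, and counts without KM 3 and without “0” 3 are given with the results. The neuronal and colliculus marker lists had no gene with a symbol, so the dissected region could not be checked against its markers. In these bulk samples fewer cells of a type and less RNA per cell cannot be told apart.

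**Figure D1:**
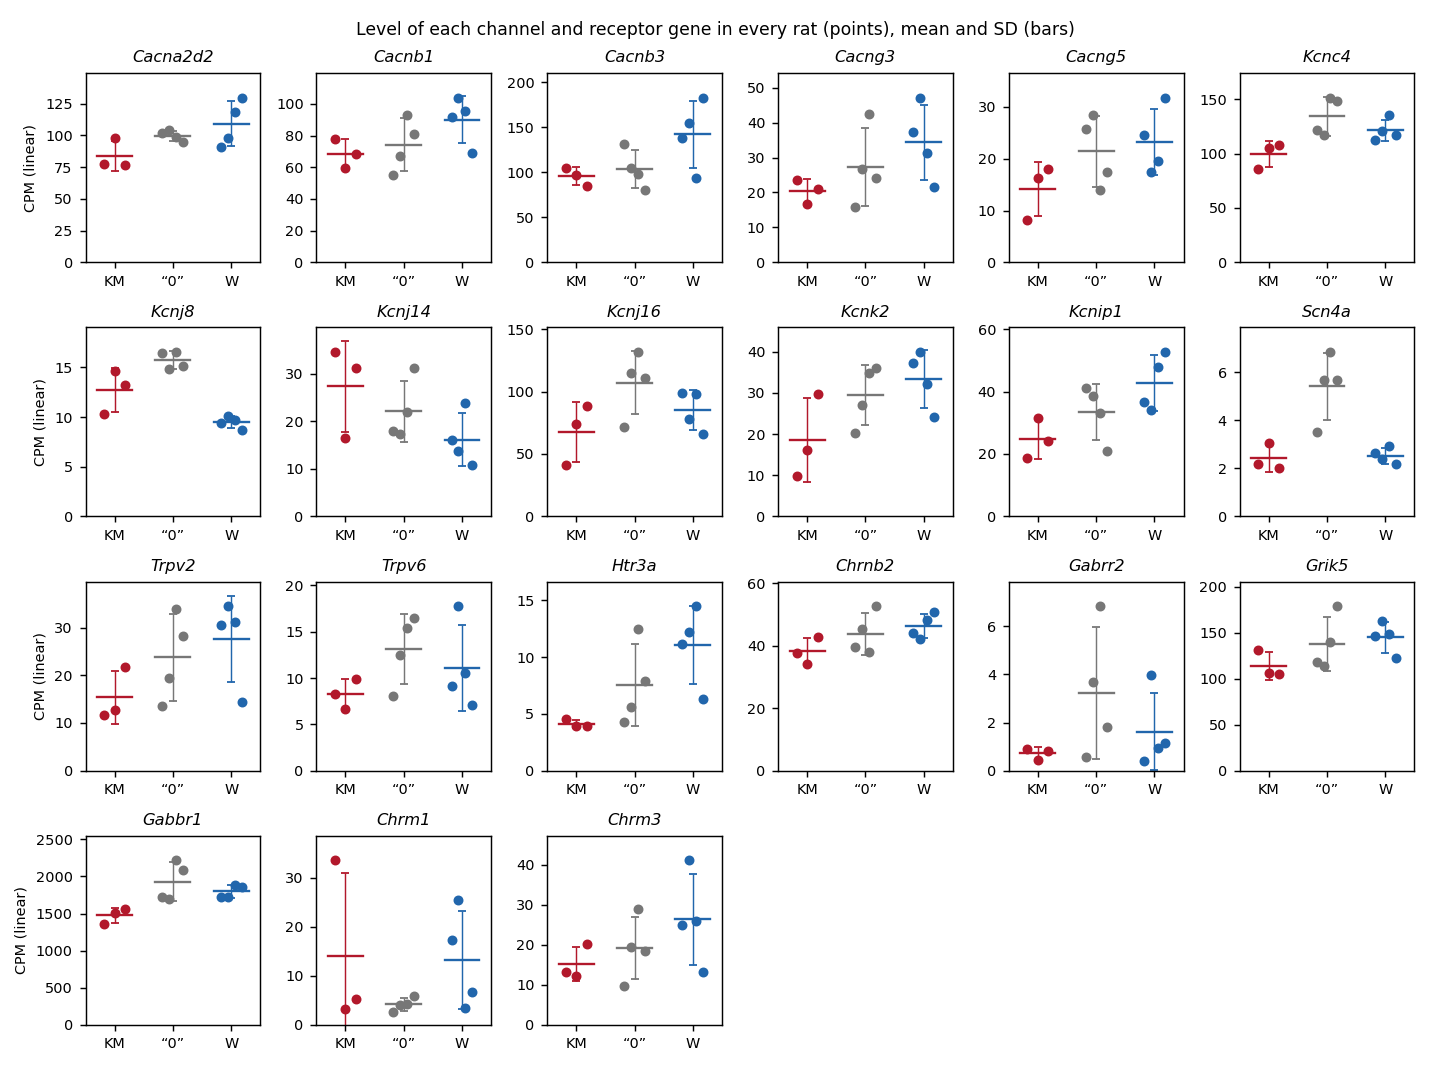
Level of 21 of the 22 channel and receptor genes in CPM on linear axes that start at 0, with 1 point per rat and the mean and SD of each strain (KM, n = 3, red; “0”, n = 4, grey; W, n = 4, blue). Htr3a lies at 3.92 to 4.54 CPM in KM rats and at 6.31 CPM or more in W rats, Kcnj8 and Scn4a are highest in “0” rats, and Chrm1 is spread widely within KM and W.

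Most of the 22 genes had lower levels in KM rats than in W rats. Of the 22 genes, 13 were DEGs in KM vs W, 11 of them lower and 2 higher in KM rats. The rule used this comparison, for which 16 of the 22 were listed, so the counts, directions and separations here describe the choice. The 13 DEGs stand beside 10.9% of the 13721 genes tested (5.33% lower and 5.58% higher). Whatever their p, 19 of the 22 had a log2-fold change below 0, with a median log2-fold change of −0.41 against 0.01 over all genes tested, of which 47.8% were lower. All KM rats were below all W rats in 5 genes and above them in 1, where 6.52% and 5.12% of all genes were so separated. None of the 22 had an adjusted p under 0.05 by QLF test, where 0.0656% of all genes had, and the smallest was 0.223. With the left-out Kcne2, Kcne5 and Cacng4 counted in, 12 of 25 genes were DEGs lower and 4 were DEGs higher in KM rats.

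The auxiliary subunits of voltage-gated calcium channels and their relatives made up 5 members. In KM vs W 4 of them were DEGs, all lower in KM rats, and the median log2-fold change of the 5 was −0.56. All 5 were listed for this comparison, so count and median describe the choice, beside 5.33% of all genes tested called lower. Cacng3 encodes a transmembrane AMPA receptor regulatory protein, which carries glutamate receptors to the synapse. Its levels were 23.6, 16.8 and 20.9 CPM in KM rats, 37.2, 47.1, 31.3 and 21.7 CPM in W rats, and 15.9, 26.7, 42.5 and 24.3 CPM in “0” rats. W 1, W 2 and W 3 lay above every KM rat, while W 4 lay among them. From W to KM the log2-fold change was −0.74 (SE 0.26, adjusted p = 0.394 by QLF test), and Cacng3 was a DEG in 6 of the 7 fits that left out 1 rat, the exception being the fit without KM 2 with −0.63. Cacng5, another member of this family, had 8.19, 16.2 and 17.98 CPM in KM rats and 24.6, 17.4, 19.5 and 31.7 CPM in W rats. The groups touched at KM 3 and W 2, and the log2-fold change of −0.71 had an adjusted p of 0.448, and it was no DEG without KM 1, KM 2, W 1 or W 4 (log2-fold change of −0.44, −0.83, −0.69 and −0.54).

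Cacnb1 and Cacnb3 encode beta subunits, which bring the pore-forming subunit to the membrane. Cacnb3 had 105, 97.2 and 85.1 CPM in KM rats and 138, 154, 93.3 and 183 CPM in W rats, so that W 3 alone fell among the KM rats. Its log2-fold change was −0.56 (SE 0.21, adjusted p = 0.423 by QLF test). In “0” rats it had 132, 105, 98.5 and 79.9 CPM, a range that took in all KM rats. Cacnb1 ranged from 59.3 to 77.9 CPM in KM rats and from 69.3 to 104 CPM in W rats, with a log2-fold change of −0.39 and an adjusted p of 0.45. Neither call held in all fits that left out 1 rat, and these fits have fewer rats. Without KM 2 or W 1 the call of Cacnb3 was lost although its log2-fold change was no smaller (−0.58 and −0.57). With each rat left out the log2-fold change of Cacnb3 ranged from −0.72 to −0.42 and it was a DEG only without KM 1 or W 3, and that of Cacnb1 ranged from −0.50 to −0.31 and it was a DEG only without KM 1 or W 4. Cacna2d2 encodes an alpha2delta subunit, of the kind that binds gabapentin. It was 76.9 to 97.6 CPM in KM rats and 91.2 to 130 CPM in W rats, and its log2-fold change of −0.37 had an adjusted p of 0.459. In RefSeq's annotation (GRCr8) Cacnb1 overlaps Rpl19 and Cacnb3 overlaps Tuba1c, while the reads were counted on Rnor_6.0. Reads set aside there as ambiguous between genes made up 1.44% to 2.36% per rat. The strand setting of the counting is not given in the sources used here, and the part of overlapping genes in these values was not tested. Another gene overlaps 12 of the 22 in RefSeq's annotation, a protein-coding one in 5. The share over all genes was not computed.

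Of the 7 potassium channel members 3 were DEGs lower and 2 were DEGs higher in KM than in W rats. These counts describe the choice too, beside 5.33% lower and 5.58% higher over all genes tested. Kcnip1 (ENSRNOG00000005365), a calcium-binding partner of A-type potassium channels, had 18.6, 31.4 and 24.3 CPM in KM rats, 36.6, 34.1, 47.7 and 52.6 CPM in W rats, and 41.1, 38.7, 33.1 and 20.8 CPM in “0” rats. No KM rat reached the lowest W rat, and the log2-fold change was −0.78 (SE 0.22, adjusted p = 0.333 by QLF test). The call remained whichever rat was left out, with log2-fold changes from −1.004 to −0.62. Kcnip1 overlaps Kcnmb1, another potassium channel subunit gene, in RefSeq's annotation.

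Kcnk2 encodes a two-pore background channel that is opened by stretch and lipids. It had 9.80, 16.2 and 29.7 CPM in KM rats and 37.3, 39.9, 32.1 and 24.0 CPM in W rats. The KM rats were spread 3.03-fold, and KM 3, the library with most choroid plexus RNA, lay above W 4. The log2-fold change of −0.84 (SE 0.34, adjusted p = 0.445 by QLF test) was past the threshold in the fits without KM 3 and without W 4 but not in the other 5. Without KM 1 it was −0.54, and without KM 3 it was −1.34. Kcnj14, an inward rectifier, was one of the genes with more RNA in KM rats, at 34.6, 16.6 and 31.2 CPM against 16.0, 13.8, 23.8 and 10.8 CPM in W rats and 17.9, 17.4, 21.9 and 31.3 CPM in “0” rats. KM 2 lay within the W range, and W 3 and all 4 “0” rats within the KM range. Its change from W to KM on the log2 scale was 0.77 (SE 0.32, adjusted p = 0.445), and as each rat was left out it ranged from 0.56 to 1.02, past the threshold only without KM 2 or W 3.

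Kcnj8 (ENSRNOG00000013463) showed another order of the strains. It encodes the pore of the ATP-sensitive potassium channel of vascular smooth muscle and pericytes. Its levels were 9.37, 10.1, 9.69 and 8.66 CPM in W rats, 10.3, 14.6 and 13.2 CPM in KM rats, and 16.5, 14.8, 16.5 and 15.1 CPM in “0” rats. The strains did not overlap in any pair, with W rats lowest and “0” rats highest. In “0” vs W, a comparison that the rule did not use but whose rats are the controls of those it did use, the log2-fold change was 0.72 (SE 0.14, adjusted p = 0.116 by QLF test), and it ranged from 0.68 to 0.76 as the 8 rats were left out one by one. In KM vs W it was 0.43 (adjusted p = 0.426), and it ranged from 0.31 to 0.56 as each rat was left out, past the threshold only without KM 1 or W 2. The difference of −0.30 in KM vs “0” had an adjusted p of 0.987. These comparisons share their rats, and none is a repeat of another.

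In RefSeq's annotation Kcnj8 lies next to Abcc9, which encodes the sulfonylurea receptor subunit that assembles with the Kcnj8 channel. It is also one of the mural cell markers listed here. Abcc9 had 23.3, 20.8, 25.9 and 26.3 CPM in W rats, 30.1, 32.5 and 28.1 CPM in KM rats, and 26.6, 40.8, 34.4 and 38.3 CPM in “0” rats. W rats were lowest for this subunit as well, and KM and “0” rats overlapped. The log2-fold change was 0.53 in “0” vs W (SE 0.16, adjusted p = 0.438 by QLF test) and 0.34 in KM vs W (SE 0.13, adjusted p = 0.431), a DEG in both. Of the 3 endothelial markers only Flt1 has a symbol. It was a DEG in both comparisons as well, with log2-fold changes of 0.34 (adjusted p = 0.609) and 0.36 (adjusted p = 0.382). Rgs5, a pericyte marker, had 0.27 in “0” vs W (adjusted p = 0.927) and was a DEG in KM vs W with 0.37 (adjusted p = 0.451). Abcc9, Flt1 and Rgs5 have a symbol because the supplementary list holds them, and that list names mostly genes listed as differing. Their calls are therefore a description. Summed over the 2 of 3 mural cell markers that have a symbol, levels were 44.2 to 59.99 CPM in W, 61.8 to 71.6 CPM in KM and 60.7 to 89.9 CPM in “0” rats, and the part of vascular cells in the Kcnj8 values was not tested.

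**Figure D2:**
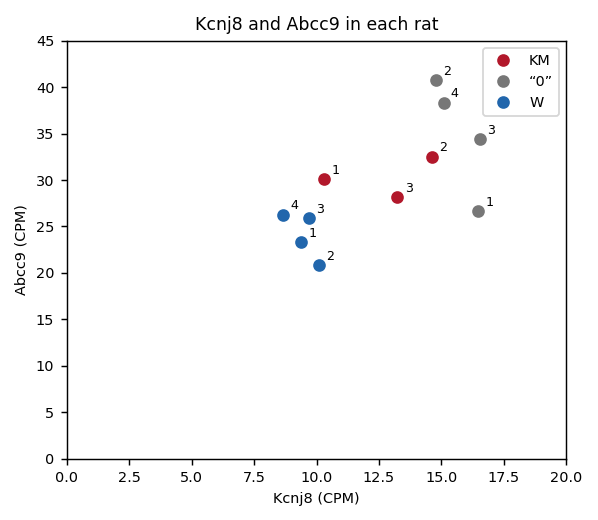
Levels of Kcnj8 (horizontal axis) and its partner subunit gene Abcc9 (vertical axis) in CPM, both on linear axes from 0, with 1 point per rat numbered within its strain. The 4 W rats sit at 8.66 to 10.1 CPM of Kcnj8 and at no more than 26.3 CPM of Abcc9, and the 4 “0” rats at 14.8 CPM of Kcnj8 or more.

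Sodium and TRP channels held 3 members. Trpv2, a cation channel gene, had 11.7, 12.8 and 21.7 CPM in KM rats, 30.6, 34.5, 31.2 and 14.3 CPM in W rats, and 13.5, 19.4, 34.0 and 28.2 CPM in “0” rats. W 4 fell among the KM rats while the other W rats lay well above them. From W to KM the log2-fold change was −0.84 (SE 0.33, adjusted p = 0.429 by QLF test), and it ranged from −1.16 to −0.69 as each rat was left out, past the threshold only without KM 3 or W 4. Scn4a (ENSRNOG00000012134), the sodium channel of skeletal muscle, was a DEG in both comparisons with “0” rats and not in KM vs W. It had 2.19, 3.04 and 2.02 CPM in KM rats, 2.64, 2.37, 2.91 and 2.17 CPM in W rats, and 3.50, 5.69, 6.84 and 5.66 CPM in “0” rats, which rested on 23 to 87 counts per rat. Every “0” rat lay above every KM and W rat.

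The log2-fold change of Scn4a was −1.16 in KM vs “0” (SE 0.31, adjusted p = 0.987 by QLF test), 1.08 in “0” vs W (SE 0.25, adjusted p = 0.229) and −0.06 in KM vs W (adjusted p = 0.961). It passed the threshold in all fits that left out 1 rat of KM vs “0” or of “0” vs W. Scn4a overlaps a long non-coding RNA gene in RefSeq's annotation, and the part of that gene in the Scn4a values was not tested. Trpv6, the calcium-selective channel of absorbing epithelia, had 8.27, 6.68 and 9.85 CPM in KM rats and 8.11, 12.5, 15.4 and 16.5 CPM in “0” rats. “0” 1 lay within the KM range. Its log2-fold change was −0.66 (SE 0.27, adjusted p = 0.987), and it ranged from −0.84 to −0.52 as each rat was left out, past the threshold only without KM 3 or “0” 1.

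The largest difference among the 22 genes in KM vs W belonged to a serotonin receptor. Htr3a (ENSRNOG00000006595) encodes the subunit that every serotonin-gated cation channel of this class needs. It had 4.54, 3.97 and 3.92 CPM in KM rats, 11.1, 12.2, 14.5 and 6.31 CPM in W rats, and 4.29, 5.59, 12.5 and 7.87 CPM in “0” rats, from 47 to 169 counts per rat. The KM rats were close together and below all W rats, while “0” 1 lay within the KM range and “0” 3 and “0” 4 within the W range. The log2-fold change was −1.41 in KM vs W (SE 0.29, adjusted p = 0.223 by QLF test), and it stayed between −1.61 and −1.26 as each rat was left out. In KM vs “0” it was −0.85 (SE 0.36, adjusted p = 0.987), and it ranged from −1.05 to −0.52 as each rat was left out, past the threshold only without “0” 1 or “0” 2. These comparisons share the KM rats.

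The other ionotropic receptor genes were Grik5, Chrnb2 and Gabrr2. Grik5, a high-affinity kainate receptor subunit, had 131, 106 and 105 CPM in KM rats and 147, 163, 148 and 122 CPM in W rats, with KM 1 above W 4. Its log2-fold change of −0.34 (SE 0.14, adjusted p = 0.448 by QLF test) ranged from −0.47 to −0.27 as each rat was left out, past the threshold only without KM 1 or W 4. Chrnb2, the beta subunit of the main nicotinic receptor of the brain, differed by −0.27 with an adjusted p of 0.467, from 34.2 to 42.6 CPM in KM rats and from 42.1 to 50.9 CPM in W rats. Gabrr2, a rho subunit of GABA-gated chloride channels, had few reads. It had 0.891, 0.422 and 0.831 CPM in KM rats, 0.557, 3.70, 6.84 and 1.82 CPM in “0” rats, and 0.401, 3.98, 0.943 and 1.13 CPM in W rats, from 5 to 62 counts. The log2-fold change was −2.11 in KM vs “0” (SE 0.76, adjusted p = 0.987), and it was no longer past the threshold without KM 2 (−1.86) or without “0” 3 (−1.47). “0” 1 lay within the KM range and the “0” rats alone were spread 12.3-fold.

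Among the G protein-coupled receptors, Gabbr1 (ENSRNOG00000000774) encodes the ligand-binding subunit of the GABA-B receptor, through which GABA acts slowly before and after the synapse. It had 1365, 1502 and 1566 CPM in KM rats, 1726, 1721, 1888 and 1862 CPM in W rats, and 1717, 1693, 2217 and 2093 CPM in “0” rats. All 3 KM rats lay below all 8 others. The log2-fold change was −0.28 in KM vs W (SE 0.12, adjusted p = 0.449 by QLF test) and −0.38 in KM vs “0” (SE 0.17, adjusted p = 0.987), and it was 0.09 in “0” vs W (adjusted p = 0.986). The KM rats are the same in both of the first values. Although the strains did not overlap, the call in KM vs W was kept only without KM 3, and the log2-fold change ranged from −0.31 to −0.23 as each rat was left out. Gabbr1 was not a DEG in KM vs W with no filter on low counts, with the newer quasi-likelihood method of edgeR or in a joint fit of the 11 rats.

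The muscarinic receptor genes Chrm1 and Chrm3 varied widely between rats of a strain. Chrm1 (ENSRNOG00000018385) had 33.5, 3.13 and 5.22 CPM in KM rats, 17.2, 25.4, 3.51 and 6.69 CPM in W rats, and 2.62, 3.98, 4.19 and 5.79 CPM in “0” rats. The high rats were KM 1, W 1 and W 2, while the “0” rats were all low. It was the only DEG of the 22 that was higher in KM rats than in “0” rats, with a log2-fold change of 1.76 (SE 0.72, adjusted p = 0.987 by QLF test), and without KM 1 the change was 0.01. The call was lost without “0” 1, “0” 2 or “0” 3 too, with log2-fold changes of 1.59, 1.75 and 1.74. In “0” vs W it was −1.68 (SE 0.54, adjusted p = 0.522), and it ranged from −1.99 to −1.13, past the threshold each time, as the 8 rats were left out one by one. That call was lost when the replicate number was fitted as a block. “0” 2, “0” 3 and “0” 4 lay within the W range, at its lower end. Chrm3 ranged from 12.1 to 20.1 CPM in KM, from 13.3 to 41.1 CPM in W and from 9.70 to 28.9 CPM in “0” rats, and the change from W to KM was −0.79 with an adjusted p of 0.467.

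**Figure D3:**
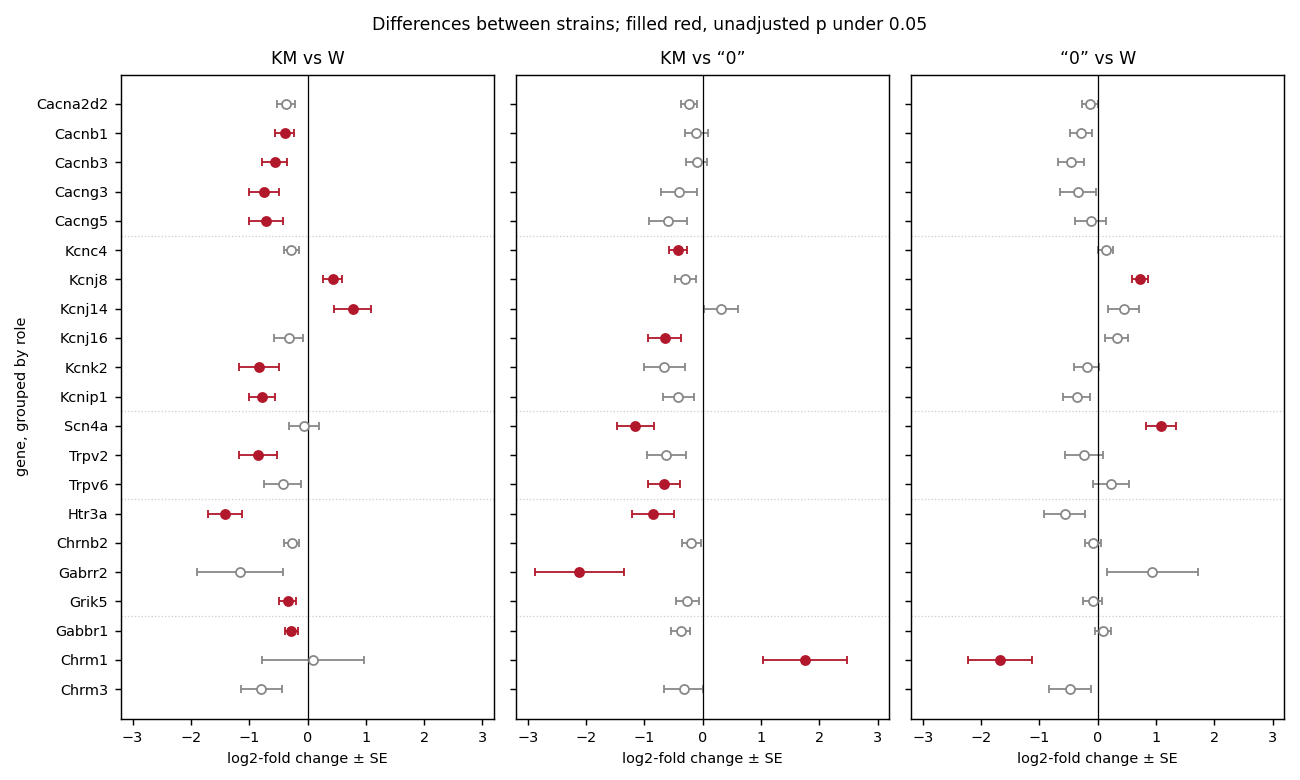
Log2-fold change with its standard error (horizontal bars) of 21 of the 22 genes, grouped by role, in the 3 pairs of strains on the same axis. Filled red points have an unadjusted p under 0.05, which holds for 12, 7 and 3 of the genes drawn, and points left of 0 are lower in the first strain named.

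Most of the 22 genes were lower in KM rats than in “0” rats too, and these are the same KM rats as in KM vs W. Of the 22 genes 7 were DEGs, 6 lower (Kcnc4, Kcnj16, Scn4a, Trpv6, Htr3a and Gabrr2) and Chrm1 higher in KM rats. This stands beside 3.65% of the 13686 genes tested (1.29% lower and 2.37% higher). The rule used this comparison too, so the number called, the directions and the separations describe the choice. Whatever their p, 20 of the 22 were lower in KM rats, with a median of −0.39 against 0.01 over all genes, of which 48.9% were lower. The strains did not overlap in 5 members, all lower in KM rats, where 2.33% of all genes were lower and 2.3% higher without overlap. None had an adjusted p under 0.05 by QLF test, where 0.0146% of all genes had, and the smallest was 0.987. With Kcne2, Kcne5 and Cacng4 counted in, 7 of 25 genes were DEGs lower and 3 were DEGs higher in KM rats.

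Kcnc4 encodes a fast potassium channel that shortens action potentials. It had 85.7, 106 and 108 CPM in KM rats, 121, 117, 151 and 148 CPM in “0” rats, and 112, 120, 135 and 117 CPM in W rats. No KM rat reached the lowest rat of either control strain. The log2-fold change was −0.42 in KM vs “0” (SE 0.16, adjusted p = 0.987 by QLF test), which was lost without KM 1 (−0.33), “0” 3 (−0.38) or “0” 4 (−0.37), and −0.28 in KM vs W (adjusted p = 0.467). Kcnj16 encodes a pH-sensitive inward rectifier that pairs with another rectifier in glia. It had 41.5, 73.8 and 88.3 CPM in KM rats and 71.6, 115, 132 and 111 CPM in “0” rats. “0” 1 lay within the KM range, and the log2-fold change of −0.65 (SE 0.28, adjusted p = 0.987) ranged from −0.86 to −0.40, its value without KM 1, and was past the threshold only without KM 3 or “0” 1. Of the 4 astrocyte markers 3 have a symbol, and they differed among themselves. Aldh1l1 was a DEG lower in KM than in “0” rats without overlap, with 56.2 ± 4.53 CPM (SD, n = 3) against 78.95 ± 15.9 CPM (SD, n = 4) and a log2-fold change of −0.48 (SE 0.18, adjusted p = 0.987). Gfap (−0.06, adjusted p = 0.989) and Gja1 (0.10, adjusted p = 0.987) were not called. These markers too have a symbol because the supplementary list holds them, so their calls are a description. Summed, the markers ranged from 1567 to 2308 CPM in KM and from 1549 to 2542 CPM in “0” rats, sums that are mostly Gfap, and the part of astrocytes in the Kcnj16 values was not tested.

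Between “0” and W rats, 3 of the 22 genes were DEGs, Kcnj8 and Scn4a higher and Chrm1 lower in “0” rats, where 6.69% of 13630 genes were DEGs (3.26% higher and 3.43% lower). The strains did not overlap in 2 of the 22, both higher in “0” rats, where 2.33% of all genes were higher and 1.99% lower without overlap. The median log2-fold change of the 22 was −0.13 and that of all genes was −0.01, and 14 of the 22 were lower in “0” rats against 52% of all genes. None had an adjusted p under 0.05 by QLF test, where 0.11% of all genes had. The place of “0” between the other strains followed the list a gene came from. Of the 14 genes listed for KM vs W only, 13 had a “0” mean between the KM and W means, and Kcnj8 had one above both. Of the 6 listed for KM vs “0” only, 5 had a “0” mean above both (Kcnc4, Kcnj16, Scn4a, Trpv6 and Gabrr2) and Chrm1 had one below both. The means of Htr3a lay in the order KM, “0”, W, and the “0” mean of Gabbr1 lay above both. The lists themselves were drawn from the same rats, so this order is a description.

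Genes were called at an unadjusted p, so the members nearest to that threshold are given with their log2-fold changes. The DEGs nearest to it in KM vs W were Cacnb1 (−0.39 ± 0.16, SE) and Gabbr1 (−0.28 ± 0.12), and the genes that just missed it were Cacna2d2 (−0.37 ± 0.16), Chrm3 (−0.79 ± 0.35), Kcnc4 (−0.28 ± 0.12) and Chrnb2 (−0.27 ± 0.12). In KM vs “0” Kcnj16 (−0.65 ± 0.28) and Htr3a (−0.85 ± 0.36) were the nearest inside, and Gabbr1 (−0.38 ± 0.17) just missed it. Of the 16 channel and receptor genes listed for KM vs W, 13 were DEGs in the fit used here, and of the 8 listed for KM vs “0”, 7 were.

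Single rats carried much of the spread. The median coefficient of variation of the 22 genes was 18.3% among KM, 20.9% among W and 25.2% among “0” rats, against 16.5%, 16.2% and 20.6% for all genes tested in KM vs W. W 4 had the lowest value of its strain in 12 of the 22 genes and “0” 1 in 12, where this held for 33.2% and 25.3% of all genes. “0” 3 had the highest value of its strain in 12 genes and W 2 in 11, against 23.5% and 25.3% of all genes. In 9 genes W 4 and “0” 1 were each lowest in their strain, namely Cacnb1, Cacng3, Kcnj16, Kcnk2, Scn4a, Trpv2, Trpv6, Htr3a and Chrm3. In 7 genes W 2 and “0” 3 were each highest, among them Cacnb1, Cacng3, Kcnj8, Trpv2, Gabrr2 and Chrm3. The share of all genes with such joint extremes was not computed, so these joint counts are a description. Over all genes tested in KM vs W, deviations from the strain mean in W 4 and “0” 1 correlated at 0.72. Those in W 2 and “0” 3 correlated at 0.0546. W 4 was also the rat with most erythrocyte RNA, with Hba-a2 and Alas2 summing to 4779 CPM against 1734 CPM in the lowest W rat, 1091 to 2007 CPM in KM and 803 to 1315 CPM in “0” rats, and its part in these values was not tested.

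**Figure D4:**
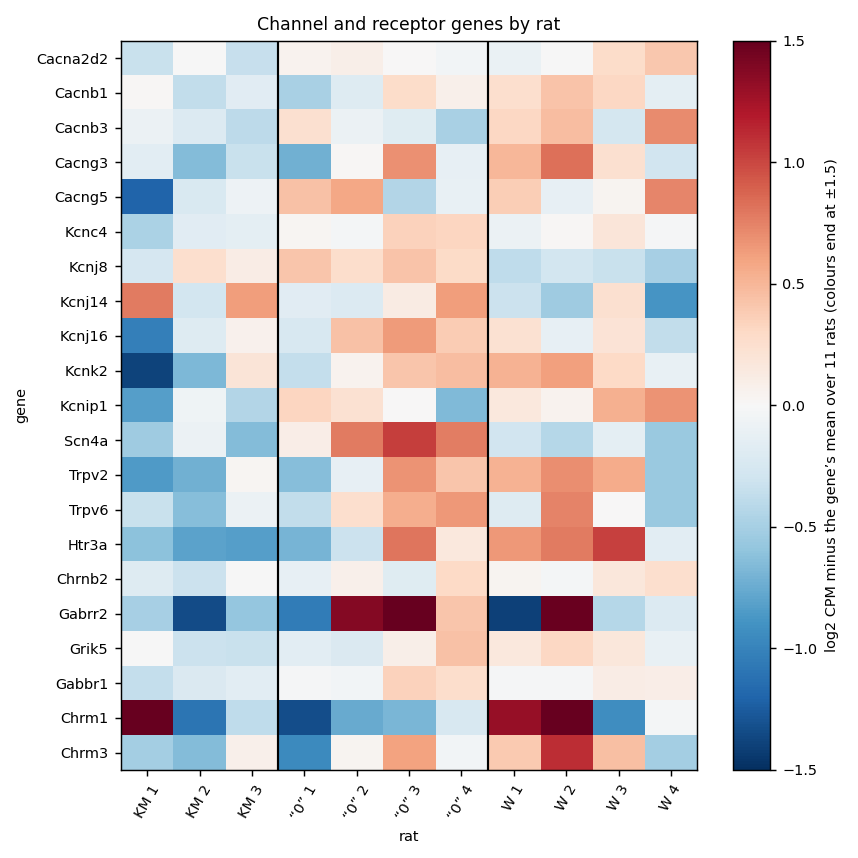
Log2 CPM of 21 of the 22 genes (rows, grouped by role) in the 11 rats (columns, grouped by strain), each shown as the difference from the gene's mean over all rats, blue for lower and red for higher, with colours that end at 1.5 in either direction. Of the 21 genes drawn, W 4 is lowest in its strain in 12 and “0” 1 in 11, and “0” 3 is highest in its strain in 11.

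The number of DEGs changed as rats were left out. Which rat was left out and the smaller number of rats were not told apart. In KM vs W it was 13 with all rats, 8 without KM 1, 5 without KM 2, 10 without KM 3, 5 without W 1, 8 without W 2, 7 without W 3 and 9 without W 4. Only 3 genes passed each time, Htr3a and Kcnip1 among them. In KM vs “0” the number was 7 with all rats, 2 without KM 1, 3 without KM 2, 8 without KM 3, 10 without “0” 1, 5 without “0” 2, 2 without “0” 3 and 4 without “0” 4, and only Scn4a passed each time. In “0” vs W it lay between 3 and 5, with 5 without “0” 1 or without W 3, and Kcnj8, Scn4a and Chrm1 passed each time. No called gene changed direction. “0” 3, whose omission lowered the number in KM vs “0” to 2, was also the rat with the largest share of reads in 10 genes, and the part of this in the calls was not tested. Over all genes tested the number of DEGs moved as well, from 954 to 1831, from 280 to 921 and from 612 to 1017.

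**Figure D5:**
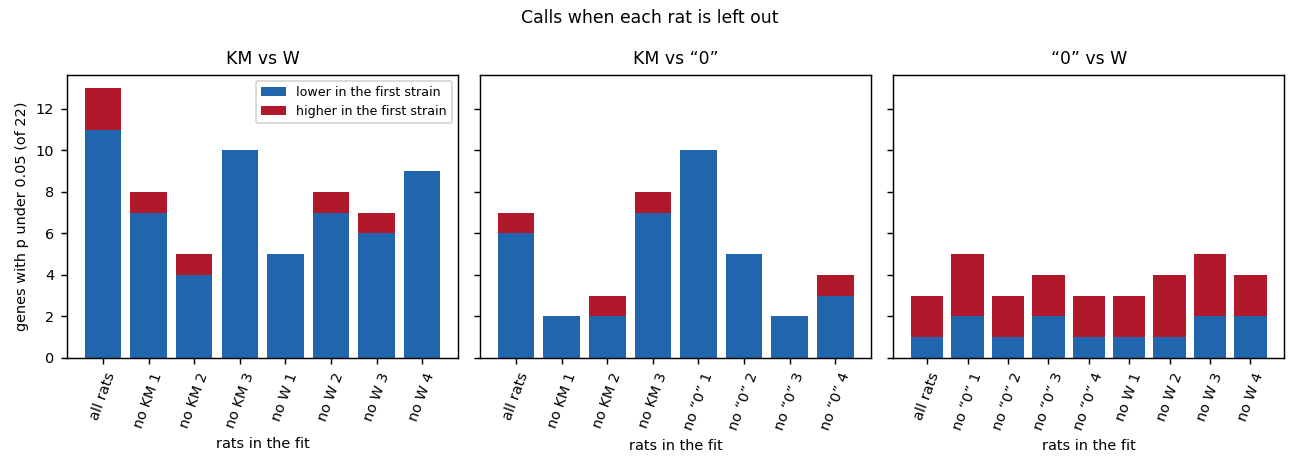
Number of the 22 genes with an unadjusted p under 0.05 (vertical axis, from 0) with all rats and with each rat left out in turn (horizontal axis), split into genes lower (blue) and higher (red) in the first strain of the comparison. The number falls from 13 to 5 without KM 2 or W 1 in KM vs W, and from 7 to 2 without KM 1 or “0” 3 in KM vs “0”.

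Proteins that place channels at synapses or set the ion gradients they use were taken from a list of 41 partner genes, of which 8 have a symbol. In KM vs W 3 of the 8 were DEGs higher (Slc12a2, Ric3 and Fgf12), 4 were DEGs lower in KM rats (Dlg4, Cnih3 and Dpp6 among them), and Slc5a7 was not called. Slc12a2, the cotransporter that loads cells with chloride, had 299 ± 58.0 CPM (SD, n = 3) in KM rats, 198 ± 30.8 CPM (SD, n = 4) in W rats and 299 ± 44.3 CPM (SD, n = 4) in “0” rats, and W rats did not overlap either of the others. Its log2-fold change was 0.60 in KM vs W (SE 0.17, adjusted p = 0.332 by QLF test) and 0.58 in “0” vs W (SE 0.16, adjusted p = 0.344). Dlg4, the main scaffold of excitatory synapses, had 348 ± 56.3 CPM (SD, n = 3), 475 ± 36.5 CPM (SD, n = 4) and 354 ± 27.2 CPM (SD, n = 4) in the same strains. W rats were highest without overlap, with log2-fold changes of −0.44 in KM vs W (adjusted p = 0.368) and −0.43 in “0” vs W (adjusted p = 0.356). The potassium channel partner Dpp6 was lower in KM than in W rats without overlap, with a log2-fold change of −0.32 (adjusted p = 0.451). Ric3, a chaperone of nicotinic receptors, was higher in “0” than in W rats by 0.43 (adjusted p = 0.46). In KM vs “0” Slc5a7 alone of the 8 was a DEG, by 0.80 (adjusted p = 0.987), with overlapping strains. The 8 genes carry a symbol because the supplementary list holds them, so their share of DEGs is a description too.

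The 5 genes that share only the first letters of a family do other work. They come from the same list, which names mostly genes listed as differing, so their counts are a description. In KM vs W 4 of them were DEGs, Itprid2 higher and Htra3, Htra4 and Scnm1 lower in KM rats, beside 10.9% of all genes tested. In KM vs “0” Htra1 and Htra4 were DEGs lower in KM rats, beside 3.65% of all genes tested in either direction. In “0” vs W Htra1 was a DEG higher in “0” rats, beside 6.69%. Htra4, a serine peptidase gene, had 0.405, 0.507 and 0.653 CPM in KM rats, 4.33, 1.84, 0.857 and 2.83 CPM in W rats, and 2.70, 3.22, 2.43 and 1.76 CPM in “0” rats, from 5 to 54 counts. KM rats lay below all others. Its log2-fold change was −2.19 in KM vs W (SE 0.56, adjusted p = 0.320 by QLF test) and −2.23 in KM vs “0” (SE 0.37, adjusted p = 0.228). Htra1, a secreted serine peptidase, was highest in “0” rats, at 289, 315, 410 and 288 CPM against 237, 206 and 202 CPM in KM rats and 213, 203, 267 and 218 CPM in W rats. Scnm1, a splicing factor gene, differed by −0.51 in KM vs W (SE 0.15, adjusted p = 0.341), and all KM rats lay below all W rats.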

How the data were processed

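Gene counts of 3 KM, 4 W and 4 “0” rats were compared, grouped by the sample titles. The authors trimmed the reads with Trimmomatic, mapped them with STAR to Rnor_6.0 and counted them per gene with HTSeq, per the methods of the study and the submitters' processing notes, which give no versions. The deposited values are raw counts, 1 file per rat, without normalization. The kit keeps strand, but the strand setting of the counting is not given in the sources used here. Assigned reads per rat had a median of 11861682, 16.5% to 22.7% of reads fell outside genes, and rats of 1 strain differed by more than sampling noise (chi-square divided by its degrees of freedom between 18.6 and 211).

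Each pair of strains was fitted on its own rats with R 4.3.3, edgeR 4.0.16, TMM factors and the original quasi-likelihood F-test. Genes entered where their mean over the rats compared reached 1 CPM. DEGs were called at an unadjusted p under 0.05, with Benjamini-Hochberg values over all genes beside it. Log2 CPM used a prior count of 2. On simulated data, the procedure was tested before use. DESeq2 1.42.0 (test and size factors), filterByExpr, no filter, the newer quasi-likelihood method, a joint fit of the 11 rats, a block for the replicate number and leaving out each rat were the alternatives.

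Symbols came from the supplementary gene list of the study, since the RefSeq gene table (GRCr8) pairs none with the identifiers counted, so a list of all channel genes was not run and the lists of markers (14 of 56 named) and partners were read only as far as that table goes. The members and lists were chosen with earlier results of these data known. All members but 1 are named, and of the partners up to 4 per comparison with p under 0.05 and no overlap between strains were named with values. Slc5a7, Rgs5, Flt1, Gfap, Aldh1l1, Gja1 and the other genes given with values were chosen after values were seen. The values of 1 member and 1 partner, which stay in the counts, are not reported here. RefSeq coordinates were printed only for promoter sequences.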

Additional observations from a re-analysis of the deposited data

Results flagged for a closer look

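Of 54 sets of 4 rats examined (each of the 27 genes in W and in “0” rats), 1 held a rat far from its strain by Dixon's test, and chance alone gives about 1 in 20. Htra3, a serine peptidase gene, had 19.1 CPM in W 4, where the other W rats had 13.4 to 14.3 CPM.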

How the results depend on the processing

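At an adjusted p under 0.05, 0 of the 22 genes remained in each comparison, against 13, 7 and 3 at an unadjusted p by QLF test. Leaving out each rat gave 5 to 10 genes in KM vs W, 2 to 10 in KM vs “0” and 3 to 5 in “0” vs W. The other alternatives gave counts within 1.5 times of these, and no called fold change reversed. The replicate numbers were not used to pair the rats. Same-numbered rats of different strains deviated together at correlations from −0.576 to 0.507, and rats of unlike number at −0.627 to 0.72. With so few rats per strain these values cannot settle whether the numbers stand for a pairing. With the replicate number as a block, 11, 6 and 2 genes were called, 10, 3 and 2 of them shared with the fit without the block. In “0” vs W the call not shared was that of Chrm1 (−1.38 with the block), and in KM vs W Gabbr1 was among those not shared (−0.26). DEGs over all genes in KM vs “0” rose from 500 to 781. Without a filter on low counts that number was 777. The list of all channel genes was not run, because identifiers and symbols could not be joined. With 3 KM rats, fold changes of genes with few counts, such as Gabrr2, are not well determined.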
